A study of Mus musculus with 18 samples.

Results

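The cytoplasmic ribosome carries about the same set of proteins in every cell, and the genes that encode them are read here as 1 set across a change of pluripotent state in mouse stem cells. The set was taken by symbol: each row of the deposited table named Rpl or Rps and a number, with an optional a, l or x, or named Rplp0, Rplp1 or Rplp2, with symbols containing -ps left out. This gave 81 of 25239 symbols, 50 of the large subunit (3 of them stalk proteins) and 31 of the small subunit, and all 81 passed the filter on low counts. In the GENCODE annotation 79 of the 81 are protein coding; Rps4l is listed as a transcribed processed pseudogene and Rpl32l as a processed pseudogene. The members lie on 19 chromosomes, with 14 on chromosome 7 and 4 on the X chromosome.

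RNA was sequenced from 18 libraries, 3 in each of 6 groups, after removal of ribosomal RNA from total RNA. EpiSC, primed cells in the labels, are day 0 of the series. D3, D5 and D8, called transient, are days 3, 5 and 8, and rES, called naive, are the cells at its end. ESC are mouse embryonic stem cells that stand outside the day series. All groups are labelled with mouse embryo as tissue and stem cell as line. The labels give no strain, sex, line name, culture medium or day for rES, and do not say whether replicates came from separate cultures, and p-values rest on how far the 3 libraries of a group lie apart, which may be technical. Libraries held 58.4 M to 101.6 M counts, and those of a group correlated at 0.974 to 0.985. Levels are in CPM, a gene's counts set to a common library total with edgeR's TMM factors, and a gene was called different at an adjusted p under 0.05. Naive markers (10 genes, among them Zfp42, Klf4 and Esrrb) summed to 4508 to 4574 CPM in rES and 4546 to 4598 CPM in ESC, against 59.1 to 65.5 CPM in EpiSC, where Zfp42 and Tcl1 had no count. Primed markers (8 genes, among them Fgf5 and Otx2) summed to 2061 to 2234 CPM in EpiSC and to 69.0 to 101 CPM at D8; Cer1 had no count at D3 or D5 or in rES or ESC.

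Each ribosome needs 1 copy of nearly every ribosomal protein, and cells keep the messenger RNAs of these proteins at high and similar levels. In mammals most of these messages begin with a 5′ terminal oligopyrimidine (TOP) tract, a C followed by a run of pyrimidines, through which mTORC1 and the RNA-binding protein LARP1 govern their translation. A few members have a second copy elsewhere in the genome, the like-type genes, some of which are known for use in the testis or in muscle. The TOP tract at the start of the Rps6 message, the starts of the like-type genes Rpl10l and Rpl39l, and stretches of coding sequence of the paralogs are printed below beside the values they belong to.

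The ribosomal protein genes took a smaller share of all counts in the middle of the series and came back at its end. They held 6.36%, 6.59% and 6.31% of the counts in the 3 EpiSC libraries, 4.27%, 4.62% and 5.03% at D3, 3.38%, 3.49% and 3.38% at D5, and 3.29%, 3.41% and 3.73% at D8. The share was 6.33%, 6.32% and 6.45% in rES and 5.73%, 5.73% and 5.42% in ESC. Every D3, D5 and D8 library lay under every library of EpiSC, rES and ESC, and D5 overlapped with D8. As means the share was 6.42 ± 0.152% in EpiSC, 4.64 ± 0.383% at D3, 3.42 ± 0.0636% at D5 and 3.48 ± 0.227% at D8 (SD, n = 3 each). It was 6.37 ± 0.0717% in rES and 5.63 ± 0.180% in ESC. The large-subunit members took 2.03 ± 0.0381% at D5, against 3.98 ± 0.109% in EpiSC, and the small-subunit members 1.39 ± 0.0461% at D5, against 2.44 ± 0.0760% in EpiSC. An exact permutation test of 3 against 3 libraries cannot give a two-sided p under 0.10, so the shares carry no test. In bulk samples fewer cells of a type and less RNA per cell cannot be told apart.

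**Figure D1:**
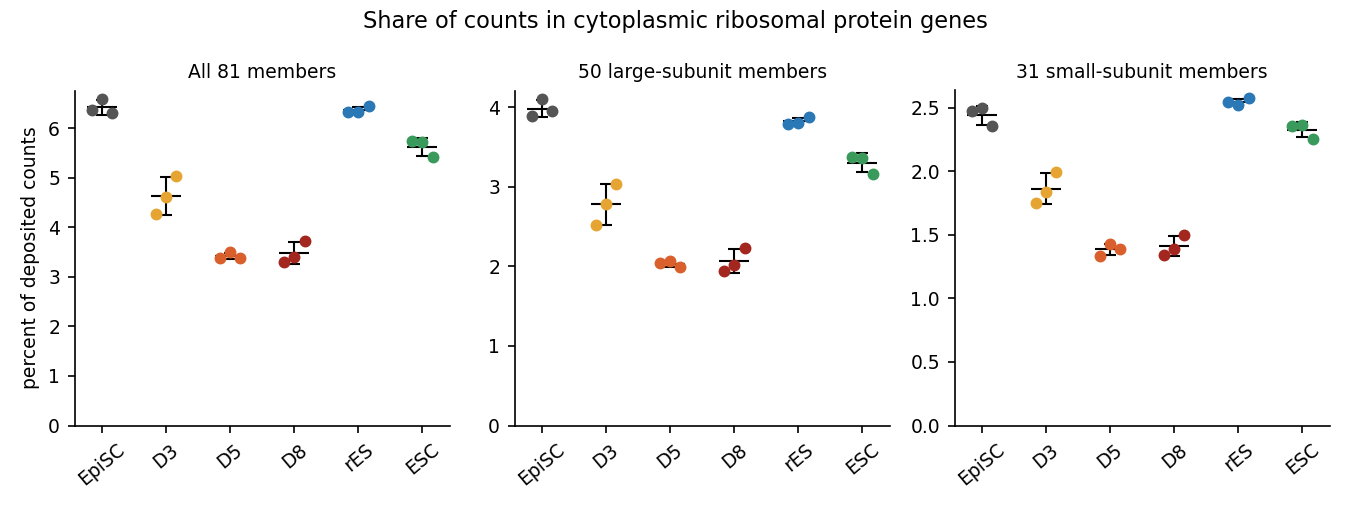
Percent of the deposited counts of each library (y axis) that fell on the 81 ribosomal protein genes, on the 50 large-subunit members and on the 31 small-subunit members, by group (x axis). Points are libraries and bars are the mean and SD of 3; the D5 and D8 libraries lie between 3.29% and 3.73% in the first panel, and the rES libraries between 6.32% and 6.45%.

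Markers of other cell types were high in the libraries with the low share. All 9 trophoblast genes of the list passed 1 CPM at D3 and D8 and 8 did so at D5. They summed to 124 to 157 CPM in EpiSC, where Cdx2 had no count, 2462 to 2880 CPM at D3, 3187 to 3395 CPM at D5 and 2500.0 to 3270.0 CPM at D8. In rES they summed to 184 to 191 CPM. The 8 fibroblast genes summed to 31.3 to 47.4 CPM in EpiSC, 501 to 656 CPM at D3, 802 to 889 CPM at D5 and 1011 to 1685 CPM at D8; in rES the sum was 17.4 to 19.4 CPM, with Dcn at 0, and in ESC it was 132 to 175 CPM. Erythroid genes (5 listed) reached 162 to 312 CPM at D5 and 51.8 to 118 CPM at D8, against 0.0803 to 0.311 CPM in EpiSC, where Hba-x, Hbb-bh1 and Hba-a1 had no count. Primitive endoderm genes (6 listed) summed to 93.8 to 108 CPM at D8, against 6.67 to 8.11 CPM in EpiSC. The part of these cells in the fall of the ribosomal protein genes was not tested.

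Member by member, the fall was broad. At D3, 62 of the 81 members fell and 0 rose, with a median log2 difference of -0.53; over all 17545 genes tested 30.2% were lower and 34.1% higher, with a median of 0.00. At D5, 73 fell and 3 rose (median -0.94), where 34.3% of all genes were lower and 37.7% higher (median 0.02). At D8 the counts were again 73 lower and 3 higher (median -0.88), beside 34.5% and 42.4% of all genes (median 0.18). At least 2-fold reductions were called for 2 members at D3, 30 at D5 and 22 at D8. Of all 17545 genes tested, 2447 were so called at D3, 3706 at D5 and 3612 at D8. Those at D3 were Rpl7a and Rpl10l, the latter with very few counts. These comparisons share the EpiSC libraries. Among the members, 61 were called lower at all 3 days and 71 at both D5 and D8, counts that were not made over all genes. Of the large-subunit members 45 of 50 fell at D5 (median -0.97), and of the small-subunit members 28 of 31 (median -0.81).

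**Figure D2:**
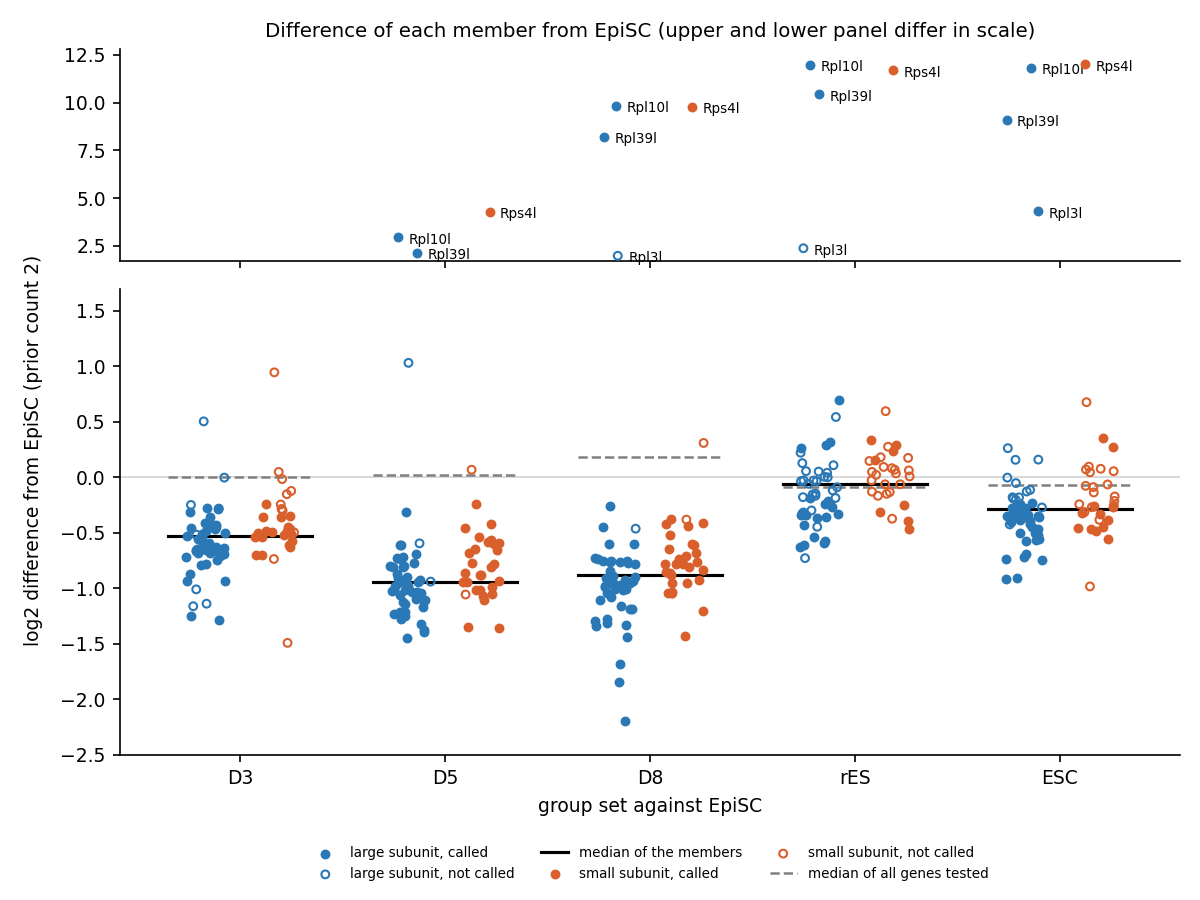
Log2 difference from EpiSC (y axis) of the 81 members, at D3, D5 and D8 and in rES and ESC (x axis). Large-subunit members are in blue and small-subunit members in orange, filled where called. Rps27 in rES (-6.01, called lower) lies below the lower panel and is not drawn. Black lines are the members' median (-0.53, -0.94, -0.88, -0.06 and -0.29) and dashed grey lines the median of all genes tested; the upper panel holds, on a wider scale, the largest positive differences, those of Rpl10l, Rps4l, Rpl39l and Rpl3l.

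The stalk proteins recruit translation factors to the large subunit. Rplp0 and Rplp1 were among the most abundant members. Rplp2, with 652, 758 and 712 CPM in EpiSC, lay near the members' median of 652, 709 and 727 CPM in these libraries. Rplp0, the stalk base, had 2650.5, 2919.5 and 2416 CPM in EpiSC, 1907, 1998 and 1942 CPM at D3, 1632, 1853 and 1762 CPM at D5, and 1456, 1455 and 1146 CPM at D8. It had 2085, 2106 and 2109 CPM in rES and 2248, 2229 and 2307 CPM in ESC. No library of the 5 other groups reached the lowest EpiSC library. The log2 difference was -0.98 ± 0.08 (SE) at D8 against EpiSC (adjusted p = 4.25e-09), and Rplp0 also fell between D5 and D8, by 0.37 (adjusted p = 0.00109). Rplp1, one of the acidic stalk proteins, had 1309.8, 1437 and 1592 CPM in EpiSC, 1064, 1205 and 1383 CPM at D3, 931, 791 and 752 CPM at D5, and 819.9, 781 and 1013 CPM at D8. In rES it had 1738, 1633 and 1689 CPM, all above every EpiSC library, and in ESC 1241, 1219 and 1022 CPM. Rplp1 differed by -0.81 ± 0.11 at D5 (adjusted p = 4.48e-06) and was not called at D3 (-0.25, adjusted p = 0.0649) or in rES (0.22, adjusted p = 0.0925). Its partner Rplp2 fell at D5 (-0.72 ± 0.11, adjusted p = 1.62e-05) and at D8 (-0.60 ± 0.11, adjusted p = 0.000104). At D3 the call of Rplp2 (-0.28, adjusted p = 0.0363) was lost with RLE scaling, with the 2 groups fitted alone, and without D3 replicate 1 or 2 or EpiSC replicate 2 or 3.

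Rps6, the small-subunit protein that S6 kinase phosphorylates downstream of mTORC1, had 1652, 1733 and 1385 CPM in EpiSC, 1046, 1044 and 1119 CPM at D3, 912, 1008 and 1052 CPM at D5, and 989.9, 978 and 799.9 CPM at D8. It had 1437, 1407 and 1405 CPM in rES and 1597, 1618 and 1739 CPM in ESC. All 9 libraries of D3, D5 and D8 lay under all others. The difference from EpiSC was -0.57 ± 0.09 at D3 (adjusted p = 1.40e-05), -0.68 ± 0.09 at D5 (adjusted p = 1.19e-06) and -0.79 ± 0.09 at D8 (adjusted p = 1.78e-07). In rES (-0.17, adjusted p = 0.0949) and ESC (0.05, adjusted p = 0.600) it was not called. RefSeq places its start on chromosome 4 of GRCm38.p6, minus strand, and the window from 60 bases before to 20 bases from the start (chr4:86857348-86857427) is shown because it holds a TOP tract. Capitals mark the first 5 transcribed bases.
Rps6: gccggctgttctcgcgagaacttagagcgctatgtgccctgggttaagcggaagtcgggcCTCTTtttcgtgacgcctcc

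Rpl5 and Rpl11, which bind 5S ribosomal RNA and, when free of the ribosome, the p53 regulator MDM2, both fell. Rpl11 had 615, 695 and 869 CPM in EpiSC, 320.4, 457 and 625 CPM at D3, 318, 272 and 249.7 CPM at D5, and 253, 261 and 363 CPM at D8. It had 596, 589.8 and 587 CPM in rES, and 389, 398 and 365 CPM in ESC. The D3 libraries reached into the range of EpiSC, and the D5, D8, rES and ESC libraries lay under it. Rpl11 differed from EpiSC by -1.38 ± 0.19 at D5 (adjusted p = 2.77e-06), by -1.31 ± 0.19 at D8 (adjusted p = 4.38e-06) and by -0.92 ± 0.19 in ESC (adjusted p = 0.000268). Rpl5 averaged 804 ± 27.6 CPM at D5 and 776 ± 24.3 CPM at D8, against 1526 ± 54.0 CPM in EpiSC. Its difference was -0.92 ± 0.06 at D5 (adjusted p = 4.14e-11), and it was also lower in rES (-0.34 ± 0.06, adjusted p = 2.55e-05). Rps19, the small-subunit protein most often mutated in human Diamond-Blackfan anaemia, changed less. It averaged 565 ± 31.2 CPM at D5, against 821 ± 40.3 CPM in EpiSC (-0.54 ± 0.08, adjusted p = 5.16e-06).

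The largest fall at D5 was that of Rpl22, a large-subunit protein that is not needed by every ribosome. Rpl22 had 438, 459 and 503 CPM in EpiSC, 268, 288 and 338 CPM at D3, 170.4, 179 and 163 CPM at D5, and 173, 177 and 221 CPM at D8. It had 422, 404 and 412 CPM in rES and 371, 334 and 312 CPM in ESC. No library of the 5 other groups reached the lowest EpiSC library, and those of D5 and D8 overlapped. The difference was -1.45 ± 0.10 at D5 (adjusted p = 2.88e-10) and -1.29 ± 0.10 at D8 (adjusted p = 1.21e-09). Its paralog Rpl22l1, outside the rule for members, ran on a different course: 81.4, 79.98 and 129 CPM in EpiSC, 98.0, 98.1 and 102 CPM at D3, 54.5, 40.3 and 46.1 CPM at D5, and 17.9, 23.5 and 40.8 CPM at D8. In rES it had 95.1, 92.8 and 91.8 CPM. Rpl22l1 was lower at D8 than in EpiSC by 1.82 on the log2 scale (-1.82 ± 0.22, adjusted p = 7.4e-07) and lower at D8 than at D5 (-0.78 ± 0.22, adjusted p = 0.0075), a step at which Rpl22 was not called (0.16, adjusted p = 0.206).

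After Rpl22, the members with the largest falls at D5 were Rpl41 (-1.39 ± 0.12), the shortest ribosomal protein, Rpl11 (-1.38) and Rps27a (-1.36 ± 0.47), which is made as a fusion with ubiquitin. The call of Rps27a at D5 was lost without D5 replicate 1 or EpiSC replicate 1. At D3 the largest among members whose libraries did not overlap were Rpl7a (-1.28 ± 0.42), Rpl4 and Rpl3 (both -0.94) and Rpl36 (-0.87 ± 0.15), and that of Rpl7a was lost without D3 replicate 1. Rpl4 had 1598, 1628 and 1616 CPM at D3, against 3062, 3260.0 and 2956 CPM in EpiSC. At D8 the largest were Rpl26 (-2.20 ± 0.75), Rpl7a (-1.85 ± 0.42), Rpl32l (-1.68 ± 0.73) and Rpl41 (-1.44 ± 0.12). The call of Rpl26 was lost without D8 replicate 1, and Rpl32l, at 0.0731 CPM at D8 and 0.301 CPM in EpiSC, was not called with RLE scaling, without a low-count filter, with a replicate block, or without D8 replicate 1 or 2 or EpiSC replicate 1 or 2. Rpl7a, Rps27a and Rpl26 also vary within groups, as described with the near-identical copies. The members that did not fall at D5 were Rps4l, Rpl10l and Rpl39l, which rose, and Rps28, Rpl3l, Rpl32l, Rps27 and Rpl26, which were not called.

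Between D3 and D5 the fall went on, and between D5 and D8 it did not. At D5 against D3, 53 members fell and 4 rose (median -0.36; 29.6% of all genes were lower and 29.9% higher, median 0.00). The largest falls were Rpl41 (-0.97 ± 0.12), Rps2 (-0.81 ± 0.09), Rpl22 (-0.80 ± 0.10) and Rpl30 (-0.80 ± 0.28), the last lost without D3 replicate 1 or D5 replicate 2 or 3. Rpl4 rose by a small amount (0.17 ± 0.05, adjusted p = 0.00552), beside Rps4l, Rpl10l and Rpl39l. At D8 against D5, 6 members rose and 2 fell (median 0.04; 25.1% of all genes were higher and 22% lower, median 0.05). Those that rose were Rpl10l, Rpl39l, Rps4l, Rpl23a (0.31 ± 0.08), Rpl24 (0.31 ± 0.09) and Rps27l (0.23 ± 0.07, lost without D5 replicate 1). Rplp0 was among those that fell. Of the 81 members 39 had their lowest group mean at D5 and 33 at D8, a count that was not made over all genes.

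In rES the members stood again near the EpiSC level. In rES against D8, 70 members rose and 1 fell (median 0.80, beside 32.7% of all genes higher and 38.4% lower, median -0.09). Of the 73 that had fallen at D8 against EpiSC, 66 were higher in rES than at D8. Both comparisons use the D8 libraries, and this count was not made over all genes. The largest rise was that of Rpl26 (2.74 ± 0.76, adjusted p = 0.00377), whose libraries overlapped and whose counts are uncertain, as described with the near-identical copies. Among members without overlap, and beside the like-type genes, it was that of Rpl7a (1.76 ± 0.42, adjusted p = 0.00115). Against EpiSC, 11 members were higher and 23 lower in rES (median -0.06), where 31.9% of all genes were higher and 37.5% lower (median -0.09). This last comparison depends on scaling: RLE scaling moved the median of all genes by 0.145 and the members' median to 0.08, with 18 members higher and 10 lower. Without EpiSC replicate 1 or 2, or without any 1 of the rES libraries, 5 or 6 members were higher instead of 11, and without EpiSC replicate 2, 13 were lower instead of 23. Among the members lower in rES were Rpl10 (-0.59 ± 0.14), Rpl39 (-0.61 ± 0.11), Rpl41 (-0.58 ± 0.12) and Rpl21 (-0.63 ± 0.21), the last lost without EpiSC replicate 2.

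The share in each ESC library lay under that of each EpiSC and rES library, and the fibroblast markers were higher there (132 to 175 CPM in ESC, 17.4 to 19.4 CPM in rES and 31.3 to 47.4 CPM in EpiSC); their part in the lower share was not tested. Against EpiSC, 43 members were lower and 6 higher in ESC (median -0.29; 36.1% of all genes were lower and 31.2% higher, median -0.07). RLE scaling moved the median of all genes by 0.111 in this comparison and left 27 members lower and 10 higher. The members with the largest reductions were Rpl11 (-0.92 ± 0.19), Rpl35 (-0.91 ± 0.16), Rpl41 (-0.75 ± 0.12) and Rpl38 (-0.74 ± 0.12). Those higher in ESC included 4 like-type genes and Rps14 (0.36 ± 0.08, adjusted p = 0.00109). In rES against ESC, 28 members were higher and 2 lower (median 0.19), where 15.6% of all genes were higher and 17.9% lower (median 0.00). Without ESC replicate 3, 16 members were higher. Of those named by size, Rpl39l kept its call in each leave-one-out fit. The calls of Rpl30 (0.88 ± 0.28), Rpl28 (0.80 ± 0.26) and Rpl11 (0.62 ± 0.18) were each lost without ESC replicate 3. That of Rpl30 was also lost without ESC replicate 2 or rES replicate 2, and that of Rpl28 without any 1 of the rES libraries. The 2 members lower in rES were Rps14, with 1094, 1075 and 1091 CPM in rES against 1425, 1351 and 1590.0 CPM in ESC (-0.42 ± 0.08, adjusted p = 0.000858), and Rps4x (-0.20 ± 0.06), whose call was lost with RLE scaling and without ESC replicate 3 or rES replicate 1.

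Per kilobase of transcript, Rplp1 stood highest in every group, at 2899 CPM per kb in EpiSC, 1653 CPM per kb at D5 and 3380.0 CPM per kb in rES. The median member had 812 CPM per kb in EpiSC, 576 at D3, 415 at D5, 468 at D8, 737 in rES and 648 in ESC (all CPM per kb). Rps2 and Rpl41 followed Rplp1 in EpiSC, and Rplp0 and Rps14 did so at D5. The order among members was not tested. It rests on a single annotated transcript per gene, and some are long for their coding part. That of Rps15a has 5179 bases with 390 coding, and that of Rps20 3706 with 357, which lowers their values per kb. Of the 81 members, 75 had at least 20 CPM in every group, and the median ratio of their highest to their lowest group mean was 2.04. Replicates of a group were close, with a median coefficient of variation of 8.35% over members and groups, but 10 members reached 50% or more in some group. These 10 were the 5 like-type genes with few counts (Rpl39l, Rpl3l, Rps4l, Rpl10l and Rpl32l) and Rps27, Rpl26, Rps28, Rps27a and Rpl7a.

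The like-type genes Rpl10l, Rps4l and Rpl39l went against the set. In mouse, Rpl10l is known from the testis, where it stands in for the X-linked Rpl10 in male meiosis, and Rpl39l is likewise known from male germ cells; Rps4l is a copy of the X-linked Rps4x. Rpl10l had 0, 0.0634 and 0.0623 CPM in EpiSC, no count in the 3 D3 libraries, 0.513, 0.555 and 0.523 CPM at D5, and 51.4, 55.2 and 91.9 CPM at D8. It had 291, 287 and 300.4 CPM in rES and 258, 263 and 263 CPM in ESC. EpiSC and D3 lay at or under the floor of 12 counts (0.183 CPM on average at D3), D5 above it, and D8, rES and ESC far above, without overlap between these 3 groups. Against the floor, Rpl10l was at least 362-fold higher at D8 than at D3. It rose at D5 against D3, at D8 against D5 (6.88 ± 0.24, adjusted p = 1.42e-11) and in rES against D8 (2.15 ± 0.17, adjusted p = 9.90e-09). Its call as lower at D3 than in EpiSC (adjusted p = 0.0472) rested on 8 counts and was lost without EpiSC replicate 2 or 3, or without any 1 of the D3 libraries, as well as without a low-count filter and with counts divided by 4.

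Rps4l had 0.0321, 0 and 0.140 CPM in EpiSC, 0.0979, 0.0306 and 0.0570 CPM at D3, 2.04, 1.05 and 1.94 CPM at D5, and 53.7, 64.2 and 117 CPM at D8. It had 269.9, 293 and 314 CPM in rES and 369.9, 373 and 348 CPM in ESC. Both EpiSC and D3 were under the floor of 12 counts, and each later group of the day series lay above the one before it. Rps4l rose at D8 against D5 (5.52 ± 0.30, adjusted p = 1.97e-10) and in rES against D8 (1.90 ± 0.24, adjusted p = 1.07e-06), and was not called between rES and ESC (-0.31 ± 0.23, adjusted p = 0.320).

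Rpl39l had 0, 0 and 0.109 CPM in EpiSC, no count at D3, 0.401, 0.114 and 0.287 CPM at D5, and 14.3, 18.2 and 26.8 CPM at D8. It had 97.3, 91.8 and 92.0 CPM in rES and 39.0, 34.9 and 36.1 CPM in ESC. At D8 it was at least 108-fold and in rES at least 512-fold higher than at D3, against the same floor. Unlike Rpl10l and Rps4l it was called between the naive groups, higher in rES than in ESC by 1.35 ± 0.24 (adjusted p = 0.000438). D8 replicate 3 was the highest D8 library for all 3 genes, and the sum of the naive markers was 986 CPM, 1204 CPM and 1881 CPM in D8 replicates 1 to 3. Whether the like-type genes follow the number of naive cells was not tested. Log2 values of these genes against EpiSC (9.83 for Rpl10l at D8, for example) depend on the prior count of 2 and are no bound.

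**Figure D3:**
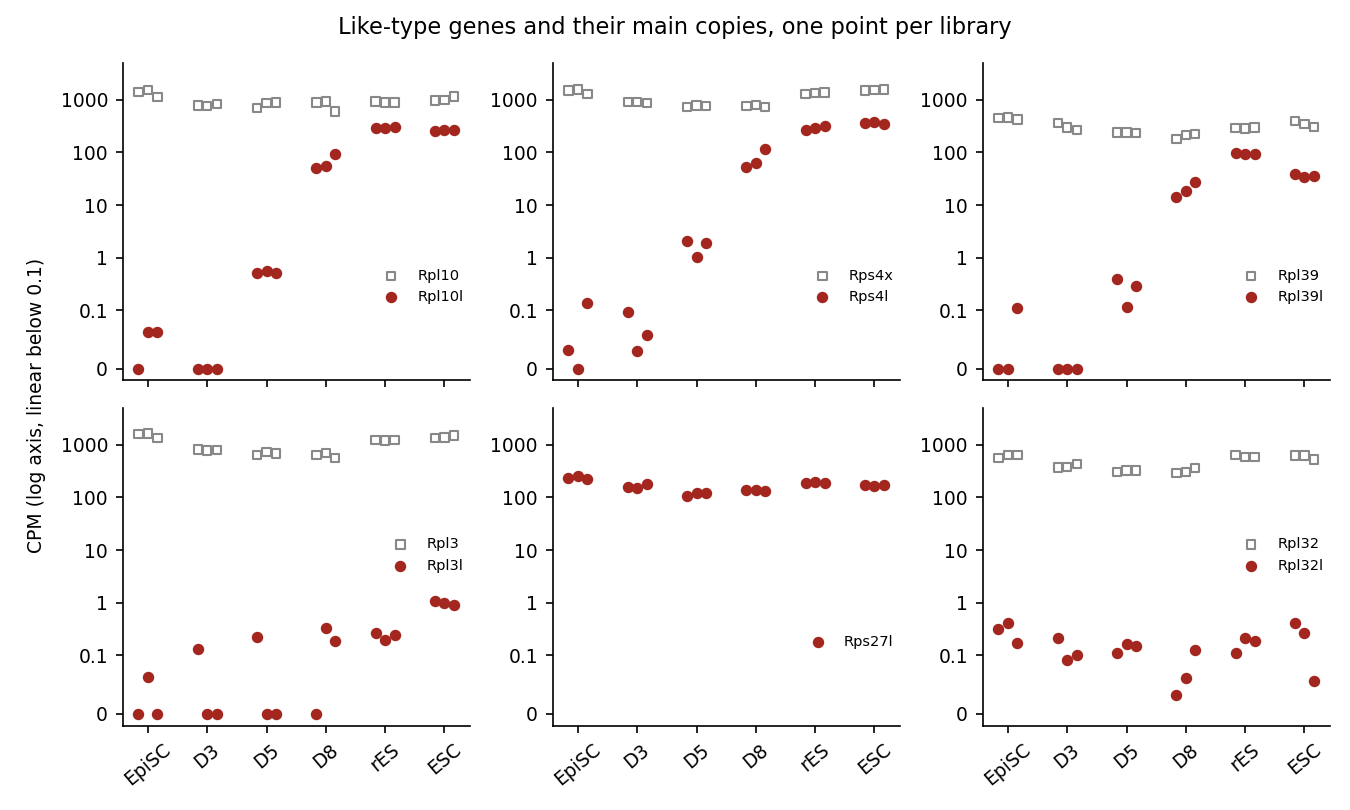
CPM on a log axis (linear below 0.1) of 6 like-type genes (red) and of their main copies (open squares) in each library, by group. Rpl10l, Rps4l and Rpl39l pass from at most 0.140 CPM in EpiSC to at least 91.8 CPM in rES, Rps27l runs with the rest of the set, and Rpl3l and Rpl32l stay at or under 1.10 CPM. The main copy of Rps27l is shown in a plot of its own.

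Set per kilobase beside their main copies, Rpl10l, Rps4l and Rpl39l made up a sizeable part of each pair in the naive cells. The percentages rest on a single annotated transcript per gene. They also depend on how reads that fit several genes were counted, which is not given in the sources used here. Rpl10 and Rps4x share sequence with other annotated genes, as given below, so their levels and the percentages of these pairs are uncertain. Rpl10l was 21.3 ± 0.668% of the sum of Rpl10l and Rpl10 in rES and 17.4 ± 1.19% in ESC, against 0.00266 ± 0.00237% in EpiSC (SD, n = 3 each). Rps4l was 18.4 ± 0.670% of its pair with Rps4x in rES and 19.7 ± 0.906% in ESC. Rpl39l was 19.6 ± 0.658% of its pair with Rpl39 in rES and 7.46 ± 0.764% in ESC. At D8 the shares were 6.94 ± 3.87% for Rpl10l, 9.51 ± 4.04% for Rps4l and 6.67 ± 1.41% for Rpl39l. The main copies fell with the set at D5 (Rpl10 -0.74 ± 0.14, Rps4x -0.95 ± 0.06, Rpl39 -0.90 ± 0.11). In rES against D8, Rps4x (0.80 ± 0.06) and Rpl39 (0.49 ± 0.11) rose, and Rpl10 (0.17 ± 0.14, adjusted p = 0.271) was not called. Rpl10 and Rpl39 were also lower in rES than in EpiSC, and Rps4x was not called there (-0.13, adjusted p = 0.0798).

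The like-type genes share little or no sequence of read length with their main copies. Windows of 100 bases from the transcripts of Rpl10l, Rpl39l and Rpl3l matched no other annotated transcript letter for letter. Of those of Rps4l 1.66% did, all in the pseudogene Rps4l-ps. The main copies were less distinct from other genes. Such matches were found for 84.4% of the windows of Rpl10, 34.8% of those of Rps4x and 1.75% of those of Rpl39. Over the coding sequence Rpl10l and Rpl10 were alike at 84.7% of 642 bases and Rpl39l and Rpl39 at 85.0% of 153 bases. Rps4l was alike to Rps4x at 79.6% of 789 bases. The coding sequences of Rpl39l and Rpl39, without the stop codon, are shown to place the 23 bases at which they differ, in capitals. Rpl39l lies on chromosome 16, plus strand (chr16:10170226-10174911), and Rpl39 on the X chromosome, minus strand (chrX:37082520-37085402), on GRCm38.
Rpl39l: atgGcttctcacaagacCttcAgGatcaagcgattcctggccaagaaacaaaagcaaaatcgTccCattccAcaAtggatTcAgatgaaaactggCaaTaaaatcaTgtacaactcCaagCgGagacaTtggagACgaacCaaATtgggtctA
Rpl39: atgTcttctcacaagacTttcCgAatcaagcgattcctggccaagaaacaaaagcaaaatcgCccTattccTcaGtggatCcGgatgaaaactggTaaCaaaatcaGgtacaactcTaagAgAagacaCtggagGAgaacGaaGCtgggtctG

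The other like-type genes behaved differently. Rpl3l, the heart and skeletal muscle paralog of Rpl3, had 0, 0.0634 and 0 CPM in EpiSC and at most 0.326 CPM in any library of D3, D5 and D8. It had 0.270, 0.198 and 0.245 CPM in rES, and the ESC libraries stood at 1.10, 0.966 and 0.918 CPM. It was called higher in ESC than in EpiSC (adjusted p = 0.0136), and not in rES against ESC (-1.93 ± 1.40, adjusted p = 0.311), though the libraries of these groups did not overlap. Rpl3 itself fell with the set (-1.17 ± 0.08 at D5). Rpl32l had at most 0.417 CPM in any library. Rps27l, whose human counterpart is induced by p53, followed the set, with 229, 254 and 226 CPM in EpiSC, 161, 153 and 180 CPM at D3, 108, 121 and 123 CPM at D5, 138, 141 and 133 CPM at D8, and 187, 196 and 189 CPM in rES. It differed by -1.01 ± 0.07 at D5 (adjusted p = 3.41e-10).

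Rps27 could be read only together with Rps27rt. Rps27 lies on chromosome 3 (chr3:90212522-90213651, minus strand) and Rps27rt, annotated as protein coding, on chromosome 9 (chr9:114982366-114982739, minus strand), on GRCm38. Their coding sequences are the same at 252 of 252 bases, and 98.4% of the 100-base windows of the Rps27 transcript occur in that of Rps27rt. The sequence is shown once beside that of Rps27l (chr9:66946086-66949516, plus strand), which differs at 60 of 252 bases, in capitals, so that no such mixing arises.
Rps27 and Rps27rt: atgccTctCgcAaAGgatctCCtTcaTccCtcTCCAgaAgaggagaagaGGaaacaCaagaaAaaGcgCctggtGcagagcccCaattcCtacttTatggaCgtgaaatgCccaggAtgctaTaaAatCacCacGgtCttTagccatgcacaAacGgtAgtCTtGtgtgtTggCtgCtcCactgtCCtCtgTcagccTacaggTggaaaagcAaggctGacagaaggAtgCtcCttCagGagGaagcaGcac
Rps27l: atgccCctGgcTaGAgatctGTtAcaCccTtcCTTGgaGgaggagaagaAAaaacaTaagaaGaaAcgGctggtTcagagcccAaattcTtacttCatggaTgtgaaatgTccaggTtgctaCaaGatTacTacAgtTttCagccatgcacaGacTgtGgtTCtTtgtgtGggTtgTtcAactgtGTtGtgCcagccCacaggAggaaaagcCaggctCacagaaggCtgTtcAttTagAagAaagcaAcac

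In 9 libraries Rps27 held 88.9% to 95.5% of the summed CPM of the pair, and in the other 9 it held 0.433% to 2.57%. The second kind were EpiSC replicate 3, D3 replicates 2 and 3, D5 replicate 1, D8 replicate 2, ESC replicate 3 and all 3 rES libraries. Rps27 alone had 406, 467 and 5.81 CPM in EpiSC, and 5.10, 5.86 and 2.60 CPM in rES. Taken alone it was called lower in rES than at D8 (-4.96, adjusted p = 0.0319). It was also called lower in rES than in EpiSC (-6.01), though the libraries of these groups overlapped. Summed before the fit, a choice made after the data were seen, the pair had 445 ± 68.3 CPM in EpiSC, 289 ± 31.1 CPM at D3, 215 ± 28.9 CPM at D5, 256 ± 59.8 CPM at D8, 279 ± 47.9 CPM in rES and 262 ± 50.2 CPM in ESC. The sum was lower than in EpiSC at D5 (-1.05 ± 0.18, adjusted p = 3.15e-05) and in rES (-0.67 ± 0.17, adjusted p = 0.00232). It was not called in rES against D8 (0.12 ± 0.17, adjusted p = 0.534).

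**Figure D4:**
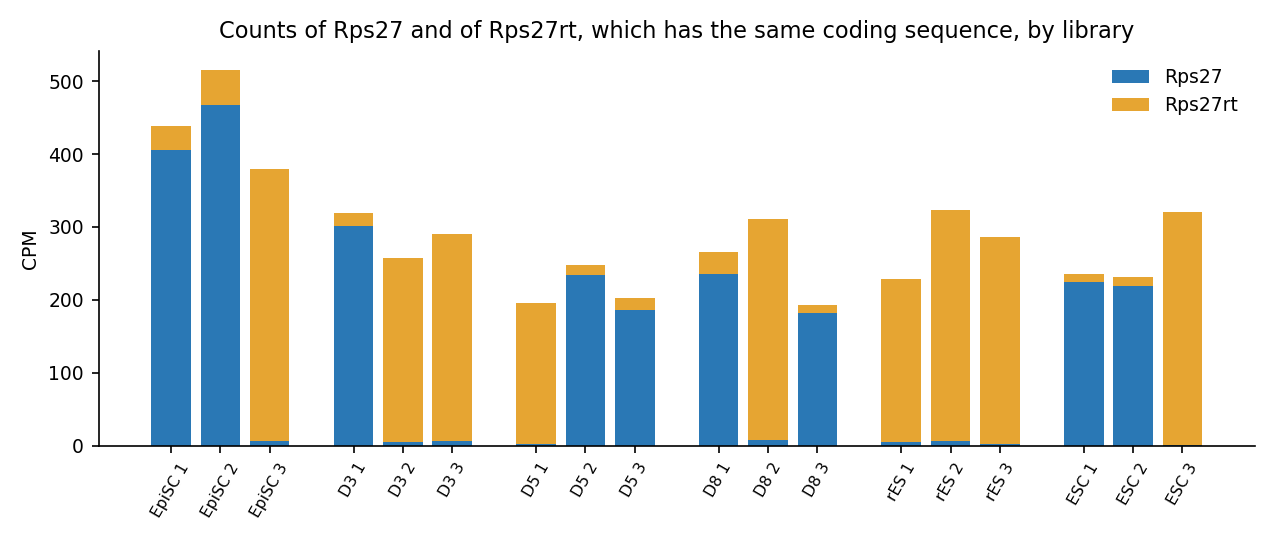
CPM (y axis, from 0) of Rps27 (blue) and Rps27rt (orange) stacked for each of the 18 libraries (x axis). Each bar is nearly all blue or nearly all orange, while the height of the bars runs from 192 to 516 CPM.

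Near-identical copies are common for this set. Of the 81 members 71 had at least 1 window of 100 bases that occurs in the transcript of another annotated gene, 56 had at least 20% of their windows shared and 32 at least 50%, with a median of 32.9%. How the counting program treated reads that fit several genes is not given in the sources used here. Rpl26 and Gm15772, whose transcripts hold 27.4% of the windows of Rpl26, also split their sum unevenly between libraries. Rpl26 held 6.12% to 58.0% of their sum in single libraries, and the sum averaged 317 ± 36.9 CPM at D5, against 487 ± 77.8 CPM in EpiSC. Rps28, with 41.3% of its windows shared, had 45.2, 33.6 and 7.43 CPM in EpiSC and 54.8, 13.2 and 98.0 CPM at D3, and its groups overlapped. Of the 25 members with under 20% shared windows 20 fell and 3 rose at D5 (median -0.77). The 3 were the like-type genes Rps4l, Rpl10l and Rpl39l. Of the 32 with at least 50% shared windows 31 fell and 0 rose at D5 (median -1.02). Over all genes tested 34.3% were lower and 37.7% higher.

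Another 9 symbols encode ribosomal proteins or a ribosome-bound protein under names outside the rule, and most of them fell as well. They include Rps27rt, whose counts cannot be read apart from those of Rps27. At D5, 7 of the 9 (77.8%) were lower and 0 higher (median -0.68; 34.3% of all genes were lower). At D8 8 (88.9%) were lower and 0 higher, beside 34.5% of all genes lower, and in rES against D8 8 (88.9%) were higher and 0 lower, beside 32.7% of all genes higher. At D3, 4 (44.4%) were lower and 0 higher, where 30.2% of all genes were lower. In ESC against EpiSC 2 were lower and 2 higher, beside 36.1% and 31.2% of all genes. In rES against EpiSC 1 was higher and 0 lower, beside 31.9% and 37.5% of all genes. Rpsa, which encodes a small-subunit protein also known as the laminin receptor, averaged 1384 ± 117 CPM at D8, against 2706 ± 253 CPM in EpiSC (-0.97 ± 0.07, adjusted p = 7.5e-10). Rps3a1, a small-subunit protein gene, averaged 538 CPM at D8, against 1072 CPM in EpiSC (adjusted p = 6.65e-12). Rack1, the scaffold protein on the head of the small subunit, differed by -0.68 ± 0.05 at D8 (adjusted p = 5.1e-10), Rpl36al by -0.64 ± 0.12 and Rpl7l1 by -0.82 ± 0.09. Fau, a fusion of a ubiquitin-like protein with a small-subunit protein, changed less (-0.20 ± 0.07 at D8, adjusted p = 0.0199).

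Genes that assemble the ribosome had their lowest median at D8. Of 30 ribosome biogenesis genes 14 (46.7%) were lower and 2 higher at D3 (median -0.27), where 30.2% of all genes were lower. At D5 26 (86.7%) were lower and 0 higher (median -0.70), and at D8 28 (93.3%) lower and 1 higher (median -1.10), beside 34.3% and 34.5% of all genes lower. In rES against D8, 29 (96.7%) were higher and 0 lower, where 32.7% of all genes were higher. In rES against EpiSC 6 (20%) were higher and 13 (43.3%) lower, near the 31.9% and 37.5% of all genes. Dkc1, the pseudouridine synthase of the box H/ACA particles, had 192, 209 and 223 CPM in EpiSC, 99.2, 90.1 and 102 CPM at D3, 26.4, 23.1 and 25.6 CPM at D5, and 42.3, 49.4 and 85.9 CPM at D8. The difference of Dkc1 at D5 was -3.05 ± 0.18 (adjusted p = 3.1e-11), and rES had 206, 208 and 212 CPM. The nucleolar genes Nolc1 (-1.89 ± 0.13) and Gnl3 (-1.82 ± 0.09) and the H/ACA protein Gar1 (-1.82 ± 0.22) had the largest falls at D8. Rrn3, an initiation factor of RNA polymerase I, was higher in rES than in EpiSC (1.80 ± 0.08, adjusted p = 1.4e-12), while Nop14 (-1.36 ± 0.07) and Ebna1bp2 (-1.31 ± 0.07) were lower. Of 12 chaperone and import genes for ribosomal proteins 7 (58.3%) were lower and 2 higher at D5, and 9 (75%) lower and 3 higher at D8, where 34.3% and 34.5% of all genes were lower. Nap1l1 was lowest among them at D5 (-2.07 ± 0.09), followed by Bccip (-1.46 ± 0.08).

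Of 20 translation factors and other genes with TOP messages, 16 (80%) were lower and 2 higher at D5 (median -0.58), where 34.3% of all genes were lower. At D8 17 (85%) were lower and 1 higher (median -0.58; 34.5% of all genes were lower), and in rES against D8 15 (75%) were higher and 2 lower, where 32.7% of all genes were higher. Npm1, the nucleolar chaperone nucleophosmin, averaged 778 CPM at D5 and 739 CPM at D8, against 2510.4 CPM in EpiSC (-1.69 ± 0.09 at D5 and -1.76 ± 0.09 at D8). At D5 Hnrnpa1, which encodes an RNA-binding protein, differed by -1.89 ± 0.33 and the elongation factor subunit gene Eef1d by -0.94 ± 0.08. In rES against D8 the poly(A)-binding protein gene Pabpc1 rose by 1.12 ± 0.07 (adjusted p = 6.8e-11). The 9 noncoding hosts of small nucleolar RNAs, whose spliced RNAs also begin with TOP tracts, were mostly lower than EpiSC in every group. All 9 were lower at D3 (median -1.44; 30.2% of all genes were lower), 8 at D5, and 6 (66.7%) at D8 with 1 higher, beside 34.3% and 34.5% of all genes lower. Between D5 and D8, 5 of the 9 (55.6%) rose and 1 fell (median 0.72), where 25.1% of all genes were higher. In rES and in ESC 8 of 9 (88.9%) were lower than in EpiSC (median -1.26 in rES and -0.99 in ESC), where 37.5% of all genes were lower in rES and 36.1% in ESC. In rES against D8, 2 were higher and 4 (44.4%) lower, near the 38.4% of all genes. Gas5 had 4.32, 1.80 and 2.46 CPM in rES, against 5.86, 7.92 and 10.1 CPM in EpiSC (-1.46 ± 0.40, adjusted p = 0.0037).

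**Figure D5:**
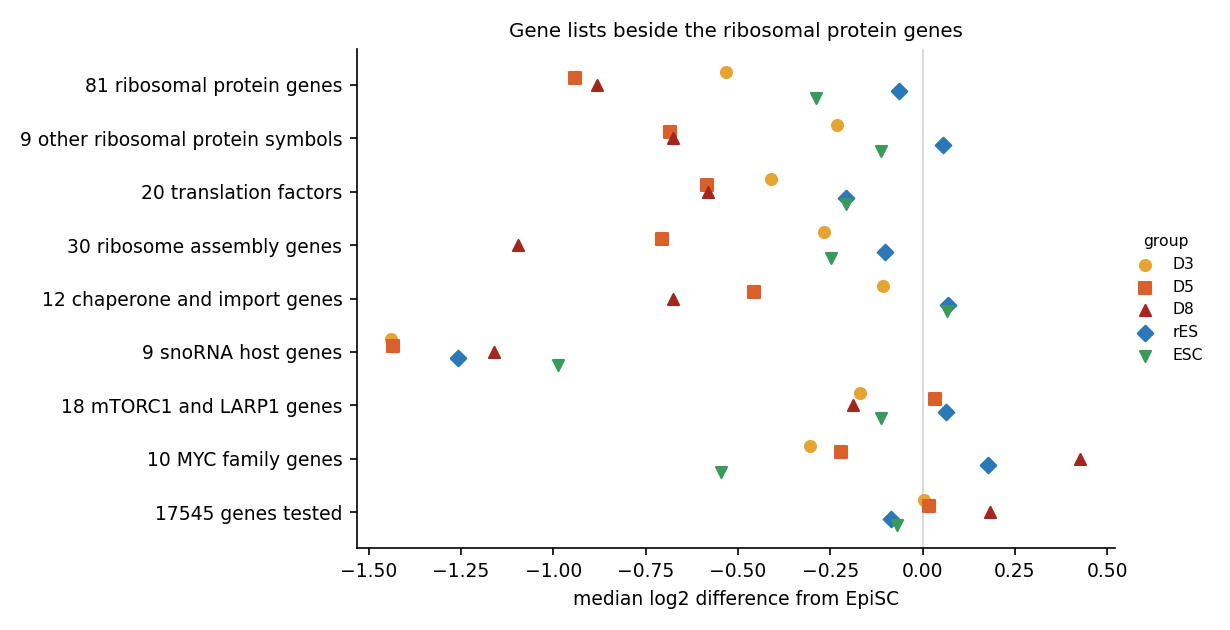
Median log2 difference from EpiSC (x axis) of the 81 members and of 7 other gene lists, with all 17545 genes tested in the lowest row, for D3, D5, D8, rES and ESC. The ribosome assembly genes have their lowest median at D8 (-1.10) and the 81 members at D5 (-0.94). The medians of the snoRNA host genes run from -1.44 at D3 to -0.99 in ESC.

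Genes of the pathways that act on these messages moved in both directions, in shares near those of all genes at D5. Of 18 genes of mTORC1, LARP1 and S6 kinase signalling 7 (38.9%) rose and 7 (38.9%) fell at D5, where 37.7% of all genes were higher and 34.3% lower. At D8 5 (27.8%) rose and 8 (44.4%) fell, beside 42.4% and 34.5% of all genes, and in rES against D8 10 (55.6%) rose and 4 (22.2%) fell, beside 32.7% and 38.4%. Larp1 had 576, 563 and 643 CPM in EpiSC, 324, 333 and 347 CPM at D3, 304, 283 and 277 CPM at D5, and 184, 203 and 247 CPM at D8. In rES it had 331, 334 and 344 CPM. Its difference was -1.49 ± 0.08 at D8 (adjusted p = 1.6e-11) and -0.82 ± 0.08 in rES. The mTORC1 inhibitor gene Ddit4 fell most at D5 (-3.86 ± 0.16), followed by the mTOR inhibitor gene Deptor (-2.62 ± 0.13) and Eif4ebp1 (-2.53 ± 0.22), which encodes a repressor of cap-dependent translation. Akt1s1, whose product PRAS40 inhibits mTORC1, rose at D8 (1.60 ± 0.10), and Deptor was higher in rES than at D8 (2.01 ± 0.13). Of 10 genes of the MYC family 4 (40%) rose and 4 (40%) fell at D5, close to all genes (37.7% and 34.3%). At D8 6 (60%) rose and 4 (40%) fell, beside 42.4% and 34.5% of all genes, and in rES against D8 3 (30%) rose and 5 (50%) fell, beside 32.7% and 38.4%. Mycn averaged 24.1 CPM at D5, against 131 CPM in EpiSC (-2.43 ± 0.14). Myc averaged 2.31 CPM in rES and 19.7 CPM at D8, against 96.3 CPM in EpiSC (-5.36 ± 0.12 in rES and -2.29 ± 0.10 at D8). Mxd4, a MAX partner that opposes MYC, rose at D8 (2.77 ± 0.18).

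RefSeq promoter windows, 250 bases before to 50 after the annotated start, were found for 60 of the 81 members and for 27025 symbols in all. A C followed by 4 pyrimidines stood at the annotated start of 14 of these 60 members (23.3%), as it did for 3.01% of all symbols. Anywhere from 10 before to 15 after the start it stood in 39 members (65.0%) and in 34.4% of all symbols, on the transcribed strand. In the 250 bases before the start, the motif CACGTG was found for 5 members (8.33%) and for 6.86% of all symbols. TATAAA, its reverse complement TTTATA, or TATATA from 40 to 16 before the start was in 3 of the 60 members and in 3.83% of all symbols. GGAAG is a form of the core bound by ETS proteins. In the 250 bases before the start, it or its reverse complement CTTCC was in 50 members (83.3%) and in 66.9% of all symbols. A match is a description of these windows, and CACGTG and the pair GGAAG and CTTCC read the same on both strands. The starts of Rpl10l and Rpl39l are shown because these genes rose while the set fell, with the first 5 transcribed bases in capitals. Like most members with a window, neither has a C with 4 pyrimidines at the annotated start, and both have it between 10 before and 15 after the start. Rpl10l is on chromosome 12, minus strand (chr12:66284382-66284461), and Rpl39l on chromosome 16, plus strand (chr16:10170168-10170247), both on GRCm38.p6.
Rpl10l: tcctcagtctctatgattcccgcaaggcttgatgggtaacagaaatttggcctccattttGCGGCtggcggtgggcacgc
Rpl39l: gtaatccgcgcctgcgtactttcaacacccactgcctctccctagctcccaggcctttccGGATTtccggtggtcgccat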

How the data were processed

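The authors deposited a table of expected counts, whole numbers per gene symbol and library. Per the submitters' processing notes, reads were handled with bcl2fastq, Trim Galore and HISAT2 on mm10; no source used here names the counting program, its annotation or its strand setting, so counts of overlapping genes and of near-identical copies are uncertain. Low counts pile up at 4 (a median of 314.5 genes per library, against 157 at 3 and 105.5 at 5). Counts were used as deposited.

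All 18 libraries entered 1 fit in edgeR 4.0.16 (limma 3.58.1, R 4.3.3) after filterByExpr (17545 genes kept), with TMM scaling (factors 0.945 to 1.05), a prior count of 2 and quasi-likelihood F tests, Benjamini-Hochberg adjusted over the genes of a comparison, called under 0.05. The common biological coefficient of variation was 0.167. SE was taken approximately, from the log2 difference and its F. The steps were tested on simulated data. Comparisons were D3, D5, D8, rES and ESC each with EpiSC, rES with ESC, and each step from D3 to rES. The floor was 12 counts in a library and covers counting error only. Over 45 pairs of libraries with the same replicate number, residuals correlated at a median of 0.00 (-0.06 to 0.05), so replicates were taken as unpaired.

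The members and all lists (ribosomal proteins outside the rule, ribosome biogenesis, chaperones and import, TOP translation factors, snoRNA hosts, mTORC1 signalling, MYC family and cell type markers) were chosen with earlier results of these data known, so no list carries a test. Named were up to 4 called members without overlap each way per comparison, the like-type genes with their main copies, Rplp0, Rplp1, Rplp2, Rps6, Rpl5, Rpl11, Rps19 and Rpl22, the 9 symbols outside the rule, and up to 3 called genes of each other list with at least 5 CPM. A few genes named by it are not reported here. Other genes named stand in counts of 10 or fewer or were chosen after their values were seen. Positions, coding sequences and 100-base windows came from GENCODE vM21 on GRCm38, and promoter windows from RefSeq on GRCm38.p6. Alternatives were RLE scaling, DESeq2 1.42.0, no low-count filter, counts divided by 4, 2 groups fitted alone, a replicate block and leaving out 1 library at a time.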

Additional observations from a re-analysis of the deposited data

How the results depend on the processing

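The counts of members called lower at D3, D5 and D8 against EpiSC stayed within 1.5 times their values under all alternatives (54 to 67, 70 to 73 and 68 to 74 with 1 library left out). The comparisons between groups of high level moved more, and the cause was not tested. In rES against EpiSC (11 higher, 23 lower, median -0.06), 33 members were higher and 13 lower with the 2 groups fitted alone (median 0.10), 18 and 11 with DESeq2 (median 0.0783), 18 and 10 with RLE scaling (median 0.0844), and 5 to 10 and 13 to 23 with 1 library left out. In ESC against EpiSC (6 and 43), 13 were higher with the groups alone, 11 with DESeq2 and 10 with RLE, which left 27 lower. In rES against ESC (28 and 2), 45 were higher and 12 lower with the groups alone, 1 was lower with RLE and 6 with counts divided by 4; leaving out 1 library gave 16 to 28 higher and 1 to 3 lower, 16 without ESC replicate 3 and 1 without rES replicate 1. At D8 against D5 (6 and 2), DESeq2 gave 11 higher and 1 lower and RLE 1 lower. With 1 library left out 1 to 4 were lower (1 without D8 replicate 1 or 2, 4 without D8 replicate 3), and the median ran from -0.0342 to 0.0526. In rES against D8 the median (0.80) was 0.86 with RLE and 0.76 to 0.88 with 1 library left out. The 1 member lower, Rps27, was not called with Rps27 and Rps27rt summed (0 lower) nor without D8 replicate 1 or 3 or any rES library (0 to 1).

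Summed with Rps27rt, Rps27 turned direction at D5 against D3 (-0.42, adjusted p = 0.0435, against 0.44 alone) and in rES against D8 (0.12, adjusted p = 0.534). With the 9 other symbols the share of counts was 7.12% in EpiSC, 5.23% at D3, 3.89% at D5 and 3.89% at D8. It was 7.10% in rES and 6.31% in ESC. For the 81 members alone the share after TMM scaling was 3.54% at D5 and 6.18% in rES, against 3.42% and 6.37% unscaled. With a replicate block 73 members were lower at D5 and 72 at D8 against EpiSC, 7 of 18 libraries correlated best with their own number, and no count moved by over 1.5 times. For single named genes, 28 of 1096 values lost their call under another setting, 30 gained one and 2 reversed; with 1 library left out 58 of 948 lost it and 11 gained one. Depth limits Rpl3l, Rpl32l and, in EpiSC and D3, Rpl10l, Rps4l and Rpl39l, all at or near the floor.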

Other observations

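Of the 9 pseudogene symbols that the rule leaves out, 3 held levels near those of members, and their means ran with the set. Rps18-ps4 averaged 380.0 CPM in EpiSC, 254 CPM at D3, 245 CPM at D5, 214 CPM at D8, 392 CPM in rES and 343 CPM in ESC. Rps6-ps4 averaged 80.4 CPM at D5, 74.3 CPM at D8 and 136 CPM in rES, against 144 CPM in EpiSC, and 83.6% of the 100-base windows of Rps6 occur in it. Rpl14-ps1 averaged 77.5 CPM at D5 and 114 CPM in rES, against 153 CPM in EpiSC. How such shared reads were assigned is not given in the sources used here. The other 6 stayed at or under 37.2 CPM in every group mean.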
